A study of Mus musculus with 9 samples.

Results

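Ribosome footprints on the genes of the glutathione, peroxiredoxin, thioredoxin and NRF2 defence against oxidants were compared between 3 mouse striatal cell lines. The genes were taken by symbol: the glutathione transferases, glutathione peroxidases and peroxiredoxins, every row whose symbol starts with Txn, the superoxide dismutases Sod1, Sod2 and Sod3, and Nfe2l2, Keap1, Nqo1, Hmox1, Gclc, Gclm, Gss, Gsr, Cat, Srxn1 and Cbr1. This gave 69 of the 36410 rows of the count table, of which 56 held enough counts to be tested. The 69 rows comprise 21 glutathione transferases, 9 glutathione peroxidases, 7 peroxiredoxins, 5 thioredoxins and thioredoxin reductases, 13 other rows starting with Txn, 6 genes of the NRF2 axis, 4 genes of glutathione synthesis and reduction, and 4 genes for superoxide dismutases and catalase.

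The control line (STHdhQ7/Q7), from wild-type mouse embryos, carries huntingtin (Htt) alleles with 7 glutamine repeats. The mutant lines are knock-in models. The HD-het line (STHdhQ7/Q111) carries 1 allele with 7 and 1 with 111 repeats, and the HD-homo line (STHdhQ111/Q111) carries 111 repeats on both alleles. The lines are immortalized cells from the embryonic striatum, the brain region most affected in Huntington disease, and all are labelled as strain C57/BL6. There were 3 libraries of each line from separate rounds of culture, 9 in all. Cells of every line received cycloheximide, which arrests elongating ribosomes, for 10 min, and protected fragments of 26 to 32 nt were recovered from 80S monosomes. Each genotype was present as 1 cell line, so that genotype and line cannot be told apart. Every value here is an abundance of footprints, with no mRNA value set against it.

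NRF2, encoded by Nfe2l2, is a transcription factor that is held at low levels by KEAP1 and that, when released by oxidants or electrophiles, binds antioxidant response elements near genes for detoxification. Its known targets include enzymes that make and reduce glutathione and thioredoxin, the small thiol molecules on which peroxidases and peroxiredoxins draw to remove peroxides. Superoxide dismutases act one step earlier by turning superoxide into hydrogen peroxide, which catalase also breaks down. Neurons of the striatum use much oxygen and are known to be sensitive to oxidants.

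Several sequence features were shared among the genes that the choice by symbol did not use. The core of the antioxidant response element, TGACNNNGC, was searched on both strands of the promoters given by RefSeq for GRCm38.p6, from 250 bases before to 50 bases after the start. Of the 69 genes, 58 had a promoter in that table, and 12 of them (20.7%) held the core in any of their promoters. Over all 27025 genes with a promoter there, 3781 did (14.0%). The windows of 5 of these genes are shown because they encode NRF2 itself and well-known targets of it. The promoters of Nqo1, Cbr1, Gss and Cat held no match, and Hmox1, Gsr and Gclc had no promoter among those searched. Capitals mark the match, which in all but Nfe2l2 reads on the strand opposite to the gene, and each window is written in the direction of its gene. They lie at chr2:75704885-75704913 (minus strand, Nfe2l2), chr3:122245413-122245441 (plus, Gclm), chr4:116685456-116685484 (plus, Prdx1), chr10:82859104-82859132 (plus, Txnrd1) and chr2:152105542-152105570 (plus, Srxn1).
Nfe2l2: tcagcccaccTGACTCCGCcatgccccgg
Gclm: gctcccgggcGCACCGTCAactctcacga
Prdx1: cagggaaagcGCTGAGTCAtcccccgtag
Txnrd1: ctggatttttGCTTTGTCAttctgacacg
Srxn1: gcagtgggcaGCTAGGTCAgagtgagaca
The match began 240 bases before the start in Nfe2l2, 134 in Gclm, 133 in Prdx1 and 92 in Txnrd1, and 28 bases after the start in Srxn1. Txnrd1 had several promoters, and only the promoter with this start held a match. A match in a window is a description of its letters and not evidence that a factor binds there.

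Another shared feature was the selenocysteine codon, a TGA that is read as the amino acid selenocysteine instead of as a stop. GENCODE M21 annotates such a codon in 7 of the genes: Gpx1, Gpx2, Gpx3, Gpx4, Txnrd1, Txnrd2 and Txnrd3. In the glutathione peroxidases the codon lies well inside the coding sequence, as codon 47 of 201 in Gpx1 and 129 of 253 in Gpx4. In the 3 thioredoxin reductases it is the last codon but 1. The windows below show this TGA in capitals in its reading frame for Gpx1 (codon at chr9:108339451-108339453), Gpx4 (chr10:80054737-80054739), Txnrd1 (chr10:82896037-82896039), Txnrd2 (chr16:18477772-18477774) and Txnrd3 (chr6:89674789-89674791), all on the plus strand of GRCm38.
Gpx1: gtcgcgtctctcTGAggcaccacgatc
Gpx4: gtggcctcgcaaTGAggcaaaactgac
Txnrd1: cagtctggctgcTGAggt
Txnrd2: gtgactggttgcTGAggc
Txnrd3: cagaaaggctgcTGAggc
The deposited counts are totals per gene, so that footprints before and after the codon were not separated.

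Library totals lay between 22504543 and 41888701 counts. The defined genes took 0.736% to 0.766% of all counts in the control libraries, 0.579% to 0.626% in the HD-het libraries and 0.812% to 0.851% in the HD-homo libraries, and these ranges did not overlap. On the scale of CPM (counts scaled to the same library size, with edgeR's composition factors), the 69 genes summed to 7429 ± 78.3 CPM in the control line, to 6203 ± 93.5 in HD-het and to 8142 ± 396 in HD-homo (mean ± SD, n = 3, as for all values below). The most abundant genes weigh most in these sums. Txn1 had 1089.7 ± 45.8, 464 ± 26.7 and 986 ± 111 CPM in control, HD-het and HD-homo, and Prdx1 had 905 ± 34.7, 701 ± 44.8 and 1209 ± 85.3. The median log2 fold change of the 56 tested genes over control was -0.09 in HD-het and 0.08 in HD-homo. In such bulk libraries, fewer cells with a gene and less of its footprints per cell cannot be told apart. The cells were also checked against cell type markers. Of 9 markers of striatal projection neurons, Drd1 and Drd2 had a count of 0 in all 9 libraries. The 9 markers summed to at most 18.7 CPM in any library. The 6 neural precursor markers summed to between 5991 and 9852 CPM, most of it from vimentin. In HD-homo cells vimentin (Vim) had 6198 ± 279.6 CPM. The rest of that list had means there of 7.01 (Nes), 3.04 (Fabp7), 2.26 (Sox2), 0.0759 (Pax6) and 0 (Hes5). The projection neuron markers summed to 7.54 to 18.3 CPM in the same libraries.

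The marker lists differed between the lines. The 6 fibroblast or mesenchymal markers, led by the collagen gene Col1a1, summed to 2575 to 4749 CPM in control, 15852 to 20097 in HD-het and 5499 to 6889 in HD-homo libraries. Other genes of this list were highest in HD-homo cells: Col1a2, another collagen gene, had 24.03 ± 5.51, 88.9 ± 27.1 and 1027 ± 135 CPM in control, HD-het and HD-homo, Pdgfra had 3.81 ± 1.15, 6.85 ± 2.23 and 155 ± 36.6, and Dcn had 7.304 ± 1.89, 11.5 ± 1.27 and 40.6 ± 3.79. All of these passed the test between HD-homo and HD-het (log2 3.53, 4.52 and 1.82, with edgeR adjusted p = 1.99e-07, 1.14e-07 and 2.62e-06). Of the 5 tested neural precursor markers, 4 were lower in HD-homo than in control and 1, Fabp7, was higher (the markers named here were chosen after their values were seen). Nes had 399.6 ± 82.7, 1086 ± 77.8 and 7.01 ± 0.611 CPM in the same order, Sox2 had 51.2 ± 3.72, 33.9 ± 4.52 and 2.26 ± 0.469, and Pax6 had 17.3 ± 1.41 and 24.8 ± 1.48 in control and HD-het cells and 5, 0 and 2 counts in the HD-homo libraries. The 6 smooth muscle or pericyte markers summed to 4352 to 5100.1, 10959.6 to 13032 and 315 to 545 CPM in the same order, with Rgs5 at or under 3 counts in every library. Acta2 led this sum, at 4100.2 ± 284, 8388 ± 1047 and 268 ± 81.02 CPM. Of the 5 tested markers, 4 were lower in HD-homo than in control, from log2 -3.94 (Acta2) to -0.38 (Myh11). The fifth, Pdgfrb, was not called there (0.29, adjusted p = 0.369). The part of these differences in the results below was not tested.

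Most of the tested genes differed between lines, which sets the background for every count that follows. Between HD-het and control cells, edgeR's quasi-likelihood test with Benjamini-Hochberg adjustment over all 12678 tested genes called 60.1% of them at an adjusted p under 0.05. Of the 56 tested genes of redox defence, 38 were called (67.9%), 17 of them higher in HD-het cells (background 31.0%) and 21 lower (background 29.1%), and their log2 fold changes had a median of -0.09 against 0.02 over all tested genes. Differences of at least 2-fold were called for 4 higher and 6 lower genes, against backgrounds of 13.9% and 6.91%. The 3 libraries of each line did not overlap for 43 of the 56, against 71.2% of all tested genes. Between HD-homo and control cells, 13 were higher (background 23.3%) and 9 lower (background 22.3%), together 39.3% against 45.7%, the median was 0.08 against 0.02, and 25 did not overlap (background 55.5%). At least 2-fold, 6 were higher and 1 lower, against 8.94% and 8.27%. Between HD-homo and HD-het cells, 27 were higher in HD-homo cells (background 34.6%) and 16 lower (background 32.8%), together 76.8% against 67.5%, the median was 0.16 against 0.02, and 42 did not overlap (background 69.5%). At least 2-fold, 10 were higher and 4 lower, against 11.1% and 16.2%. Some difference among the 3 lines was called for 45 of the 56 genes, against 78.4% of all tested genes. No test set these shares against the background, and what follows describes which genes differed and how. The comparisons of HD-het and HD-homo with control share the 3 control libraries.

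**Figure D1:**
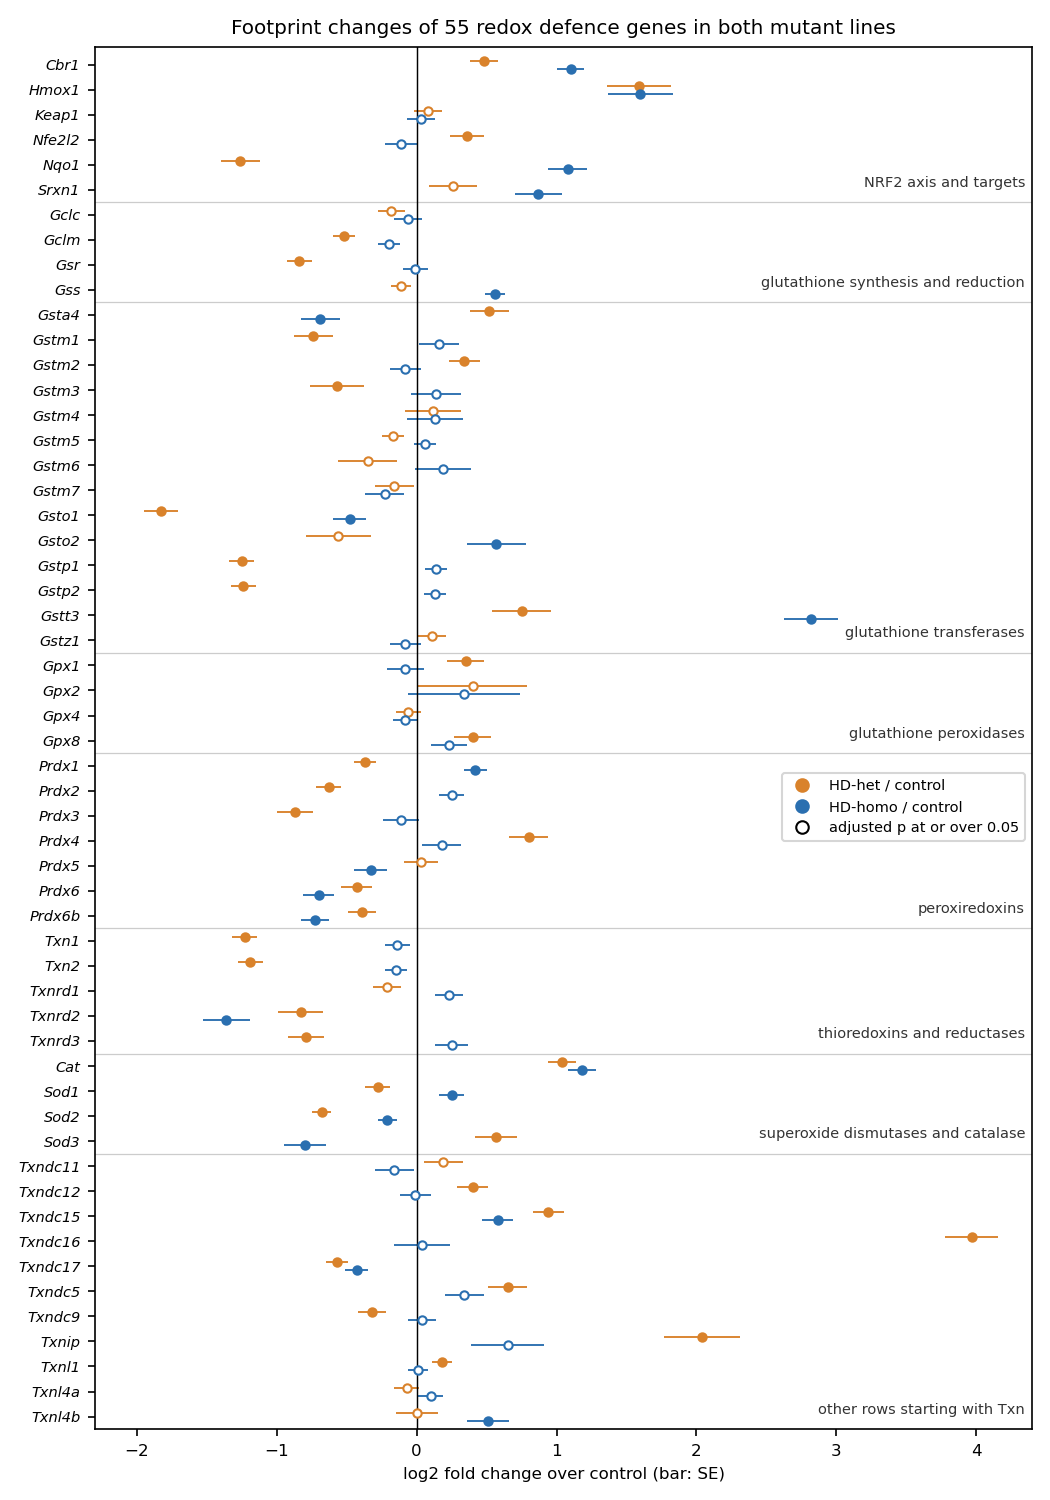
Log2 fold change over control (x axis, bars are SE) of 55 tested genes (y axis) in HD-het (orange) and HD-homo (blue) cells, in blocks by function, with the name of each block at its lower right and filled points for an adjusted p under 0.05. Points for the thioredoxins and reductases lie left of 0 in HD-het cells, down to -1.23 for Txn1, while Hmox1 and Cat lie right of 0 in both mutant lines. Gpx7, with a count of 0 in control and HD-het libraries, is not drawn.

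Sorted by the line that differed from both others, 17 genes were lowest in HD-het cells, called against control and against HD-homo (30.4% of the 56, against 21.9% of all tested genes). These were the reductases and carriers Gsr, Txn1, Txn2 and Txnrd3, the peroxiredoxins Prdx1, Prdx2 and Prdx3, the transferases Gstm1, Gstm3, Gsto1, Gstp1 and Gstp2, and Gclm, Nqo1, Sod1, Sod2 and Txndc9. HD-het cells were the highest line for 11 genes (19.6% against 21.8%), among them Nfe2l2, Gpx1, Gsta4, Prdx4, Sod3, Txnip and Txndc16. HD-homo cells were highest for 10 (17.9% against 15.0%), including Nqo1, Srxn1, Cbr1, Gss, Prdx1 and Sod1, and lowest for 6 (10.7% against 15.4%), including Gsta4, Prdx5, Prdx6, Sod3 and Txnrd2. Control cells were lowest for 5 (8.93% against 9.54%), among them Hmox1, Cat and Cbr1, and highest for 6 (10.7% against 7.46%), among them Gsto1, Prdx6, Sod2 and Txnrd2. A gene can appear under more than 1 of these headings.

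**Figure D2:**
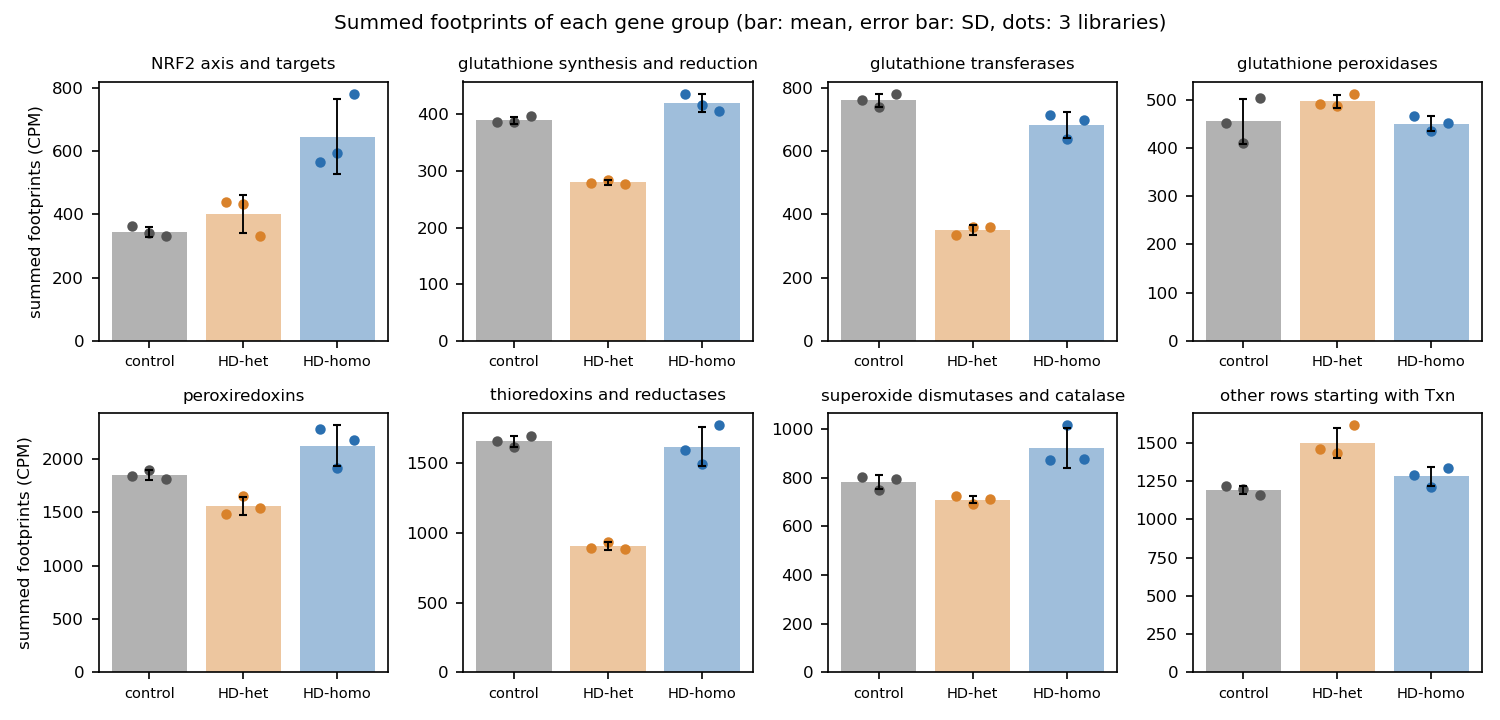
Summed footprints (y axis, CPM from 0) of the 8 groups of genes in control (grey), HD-het (orange) and HD-homo (blue) cells (x axis), with bars for means, error bars for SD and dots for the 3 libraries. The sums of the glutathione transferases and of the thioredoxins with their reductases were lowest in the HD-het libraries, at 351 and 905 CPM on average, against 761 and 1655 CPM in control.

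The NRF2 axis came first by role. Nfe2l2 (chr2:75675513-75704663) had 93.6, 91.9 and 99.5 CPM in the control libraries, 126, 130.2 and 109.9 in HD-het and 72.9, 103 and 88.4 in HD-homo. The HD-het libraries lay above all others, and those of HD-homo overlapped with control. Nfe2l2 was higher in HD-het than in control (log2 fold change 0.36, SE 0.12, adjusted p = 0.0204) and lower in HD-homo when set against HD-het (-0.47, SE 0.12, adjusted p = 0.00408), while HD-homo against control gave -0.11 (SE 0.12, adjusted p = 0.472). The call against control was lost without control replicate 1 or 2 or HD-het replicate 1 or 2 (adjusted p 0.0657 to 0.0922), and with offsets for coding length and GC content the difference was 0.12 (adjusted p = 0.387). These offsets moved the median log2 fold change of all tested genes to -0.13 for HD-het over control and to 0.13 for HD-homo over HD-het. Every value with the offsets here and below is to be read against these shifts. Keap1 (chr9:21229730-21239332), the adaptor that targets NRF2 for degradation, stood at 14.5 ± 1.05, 15.3 ± 1.33 and 14.9 ± 0.379 CPM in the 3 lines, in the order control, HD-het, HD-homo, which holds for every triplet of means below. No comparison of Keap1 passed the test, with log2 fold changes between -0.04 and 0.08 and an SE of 0.10 each.

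Nqo1 and Hmox1, standard readouts of NRF2 activity, had different patterns. Nqo1 (chr8:107388225-107403205), a quinone reductase, had 168, 148 and 135 CPM for control, 64.6, 60.9 and 62.2 for HD-het and 273, 278 and 404 for HD-homo libraries. The 3 lines did not overlap, with HD-het lowest and HD-homo highest. Nqo1 fell by 1.26 on the log2 scale in HD-het (SE 0.14, adjusted p = 2.48e-05) and rose by 1.08 in HD-homo (SE 0.14, adjusted p = 8.91e-05), a 5.09-fold difference between the mutant lines (adjusted p = 1.67e-07). Hmox1 (chr8:75093618-75100593), which degrades haem, had 55.6, 55.5 and 47.9 CPM in control cells, 190.0, 183 and 106 in HD-het cells and 136, 132 and 214 in HD-homo. Both mutant lines lay above control in every library and overlapped with each other, and 1 library of each, HD-het replicate 3 and HD-homo replicate 3, stood apart from its other two. Hmox1 was 3.01-fold higher in HD-het (log2 1.59, SE 0.23, adjusted p = 1.22e-04) and 3.03-fold higher in HD-homo (log2 1.60, SE 0.23, adjusted p = 1.63e-04), and the mutant lines differed by 0.01 on the log2 scale (SE 0.22, adjusted p = 0.976).

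Srxn1 and Cbr1 rose in HD-homo cells. Srxn1 (sulfiredoxin), which repairs over-oxidized peroxiredoxins and carries the promoter match shown above, had 11.4, 12.1 and 12.4 CPM in control, 16.2, 14.7 and 11.96 in HD-het libraries and 27.01, 16.6 and 21.6 in HD-homo. HD-het overlapped with control, whereas HD-homo did not, although its own libraries spread widely. The log2 fold change over control was 0.87 in HD-homo (SE 0.17, adjusted p = 0.00141) and 0.26 in HD-het (SE 0.17, adjusted p = 0.198). With offsets for coding length and GC, the HD-het difference passed the test (0.48, adjusted p = 0.0193). Cbr1, a carbonyl reductase, increased from 19.7 ± 0.737 CPM in control to 27.4 ± 1.95 in HD-het and 42.1 ± 5.07 in HD-homo. No library of 1 line overlapped with another line for Cbr1, and it was called in all 3 comparisons, at log2 0.48 (adjusted p = 0.00198), 1.10 (adjusted p = 6.33e-06) and 0.62 (adjusted p = 2.56e-04) for HD-het over control, HD-homo over control and HD-homo over HD-het. Of the 6 genes of this group, 3 were higher and 1 lower in HD-het than in control (66.7% called against 60.1% of all tested genes). In HD-homo 4 were higher and none lower (66.7% against 45.7%). The summed level of the group, 344 ± 16.1, 401 ± 61.2 and 646 ± 118 CPM, is made up largely of Nqo1, Hmox1 and Nfe2l2.

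**Figure D3:**
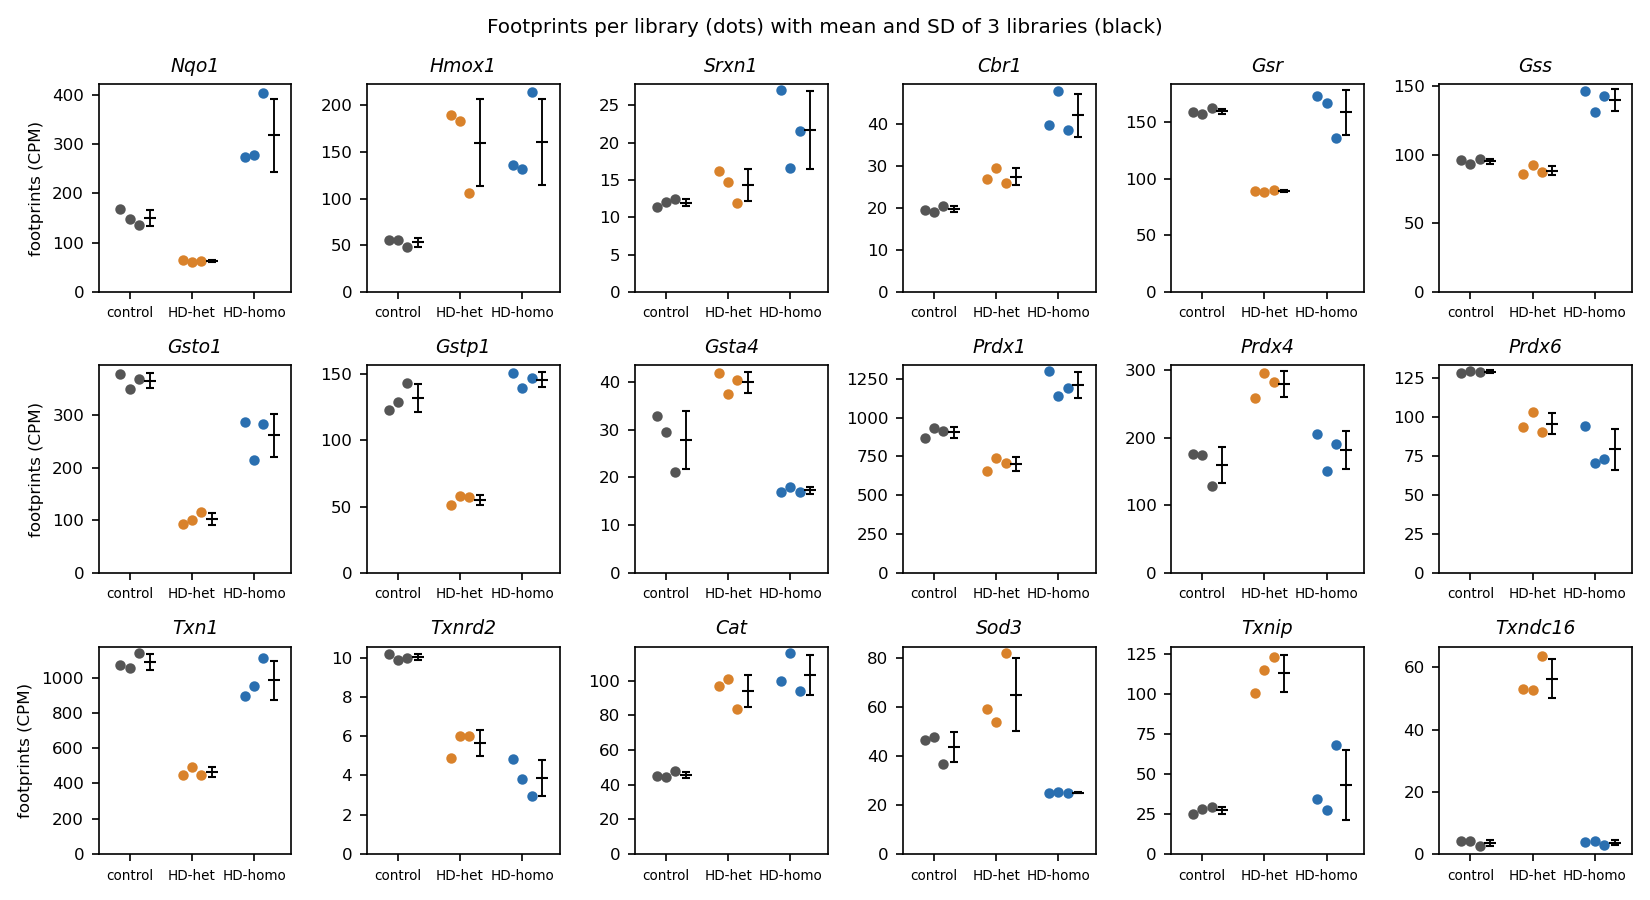
Footprints (y axes, CPM from 0) of 18 genes in each library (dots) of control (grey), HD-het (orange) and HD-homo (blue) cells (x axis), with the mean and SD of the 3 libraries in black. HD-het libraries were the lowest for Nqo1, Gsr, Gsto1, Gstp1 and Txn1 and the highest for Prdx4, Txnip and Txndc16, and control libraries were the lowest for Hmox1, Cbr1 and Cat.

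Glutathione is made in 2 steps, by glutamate-cysteine ligase and glutathione synthetase, and is kept reduced by glutathione reductase. Gclc, the catalytic subunit of the ligase, had 41.3 ± 2.28, 36.4 ± 2.14 and 39.7 ± 4.38 CPM (control, then HD-het, then HD-homo) and passed no test, although its control and HD-het libraries did not overlap (log2 -0.18, SE 0.10, adjusted p = 0.132). With the offsets, that difference became -0.43 (adjusted p = 0.00298), and HD-homo against HD-het passed the test (0.31, adjusted p = 0.0168). The medians of all tested genes were then -0.13 and 0.13. Gclm, the modifier subunit, had 91.1, 91.8 and 97.97 CPM for control, 66.4, 64.96 and 64.7 for HD-het and 73.4, 83.8 and 86.7 for HD-homo. Each line lay apart from the others, with HD-het lowest. Gclm fell in HD-het by 0.52 on the log2 scale (SE 0.08, adjusted p = 2.45e-04), and HD-homo against control gave -0.20 (SE 0.08, adjusted p = 0.0614), which passed the test without HD-homo replicate 3 (adjusted p = 0.0432), with the offsets (-0.32, adjusted p = 0.006304) and with DESeq2 (adjusted p = 0.0448).

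Gss, the synthetase, and Gsr, the reductase, differed in opposite lines. Gss (chr2:155563181-155592810) had 95.9, 93.2 and 96.7 CPM in control cells, 85.6, 92.2 and 87.5 in HD-het cells and 146, 131 and 143 in HD-homo. The HD-homo libraries stood above all others, and Gss rose there by 0.56 on the log2 scale (SE 0.07, adjusted p = 9.25e-05). In HD-het it gave -0.11 (SE 0.07, adjusted p = 0.232), which passed with the offsets (-0.26, adjusted p = 0.00816). With these offsets the median of all tested genes was itself -0.13, against 0.02 without them. Gsr (chr8:33653238-33698162) had 159, 157 and 162 CPM in control, 89.2, 87.9 and 90.3 in HD-het libraries and 173, 167 and 136 in HD-homo. The HD-het libraries were the lowest, and HD-homo spanned the control values. Gsr fell in HD-het by 0.84 on the log2 scale (SE 0.09, adjusted p = 1.77e-05) and gave -0.01 in HD-homo (SE 0.09, adjusted p = 0.9703). The 4 genes summed to 389 ± 6.19, 279 ± 3.76 and 419.6 ± 15.4 CPM.

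The glutathione transferases, which couple glutathione to electrophiles, had the lowest sum in HD-het cells, 351 ± 15.2 CPM against 761 ± 19.98 in control and 683 ± 40.1 in HD-homo. Of their 14 tested genes, 3 were higher and 5 lower in HD-het than in control (57.1% called against 60.1% of all tested genes). In HD-homo 2 were higher and 2 lower (28.6% against 45.7%). Gsto1 (omega class, chr19:47854973-47864790) had 378, 349.7 and 369.6 CPM for control, 92.5, 101 and 115 for HD-het and 287, 214 and 284 for HD-homo. The lines did not overlap, and Gsto1 fell in HD-het by 1.83 on the log2 scale (SE 0.12, adjusted p = 5.89e-07) and in HD-homo by 0.48 (SE 0.12, adjusted p = 0.00632). The pi class pair Gstp1 and Gstp2 lies side by side at chr19:4035411-4037912 and chr19:4040288-4042221. Their coding sequences are 98.1% identical, and 78.6% of the 28-base windows of one occur in the other, so that the division of footprints between them is uncertain (Gstp2 counts were 0.873 to 0.922 of those of Gstp1 in every library). Gstp1 had 132 ± 10.1, 55.2 ± 3.67 and 145 ± 5.95 CPM and Gstp2 had 119 ± 10.2, 50.6 ± 3.24 and 130.1 ± 3.38. Summed into 1 row, the pair fell in HD-het by 1.24 on the log2 scale (adjusted p = 7.30e-07), gave 0.14 in HD-homo against control (adjusted p = 0.213), and stood 1.38 higher in HD-homo when set against HD-het (adjusted p = 1.43e-07).

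Other transferases moved differently. Gsta4 (alpha class), known for the conjugation of the lipid peroxidation product 4-hydroxynonenal, had 32.8, 29.6 and 21.2 CPM in control cells, 41.9, 37.6 and 40.5 in HD-het cells and 16.9, 18.1 and 16.9 in HD-homo. The lines did not overlap, with HD-het highest and HD-homo lowest. It was called in opposite directions against control, at log2 0.52 in HD-het (SE 0.14, adjusted p = 0.00674) and -0.69 in HD-homo (SE 0.14, adjusted p = 0.00202). Gstm1 (mu class) was lower in HD-het, at 15.5 ± 2.53 CPM against 26.03 ± 1.43 in control and 29.1 ± 4.66 in HD-homo (log2 -0.74 over control, SE 0.14, adjusted p = 8.92e-04). Gstm1 shares 24.4% of its 28-base windows with Gstm3. The theta gene Gstt3 (named here after its values were seen, as it lies under the level set for naming) rose from 0.989 ± 0.174 CPM in control to 1.66 ± 0.312 in HD-het and 7.08 ± 0.892 in HD-homo, with no overlap between lines. It was 7.08-fold higher in HD-homo than in control (log2 2.82, SE 0.19, adjusted p = 4.89e-07). The neighbouring class members Gstt1 and Gstt2 were not tested, with 2, 4 and 3 counts of Gstt1 in control, 8, 3 and 1 in HD-het libraries and 18, 7 and 14 in HD-homo, and 1, 1 and 1, then 0, 3 and 0, then 9, 7 and 3 of Gstt2.

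The glutathione peroxidases reduce peroxides with glutathione. Of their 9 rows, Gpx1, Gpx2, Gpx4, Gpx7 and Gpx8 could be tested, and all 9 summed to 456 ± 47.1, 497 ± 13.7 and 450.1 ± 16.2 CPM (control, then HD-het, then HD-homo). Gpx4, which reduces lipid peroxides in membranes and protects against ferroptosis, had 271, 246 and 310.4 CPM for control, 276, 265 and 253 for HD-het and 268, 265 and 252 for HD-homo. The lines overlapped and no comparison passed the test (log2 -0.06, -0.08 and -0.01, SE 0.09 each, lowest adjusted p = 0.527). Gpx1, the abundant cytosolic form, had 102, 88.1 and 132 CPM in control cells, 129, 132 and 149 in HD-het cells and 103, 91.2 and 109 in HD-homo. The control libraries overlapped with both mutant lines. Gpx1 was called higher in HD-het (log2 0.35, SE 0.13, adjusted p = 0.0404), but not without control replicate 1 or 2 or any 1 HD-het library (adjusted p 0.0613 to 0.168), of which control replicate 2 moved the value to 0.23.

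Gpx7, a peroxidase of the endoplasmic reticulum that uses thioredoxin-like partners more than glutathione, was absent from the counts of 2 lines (it is named here after its values were seen). It had a count of 0 in all 3 control and all 3 HD-het libraries and 100, 68 and 34 counts in the HD-homo libraries, or 2.297 ± 0.689 CPM. Taking 3 counts in each library as the most that an observed 0 permits, Gpx7 was at least 23.1-fold higher in HD-homo than in control. Against HD-het it was at least 20.4-fold higher. Gpx7 passed the filter for testing only through its HD-homo counts. Its calls as higher in HD-homo, which are included in the counts above, are therefore no separate support. Such limits cover counting error only, since amplified fragments are not independent molecules. Gpx3, the plasma form, and the pseudogene Gpx2-ps1 had a count of 0 in all 9 libraries, and Gpx5 and Gpx6 reached at most 1 count in a library.

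The peroxiredoxins are thiol peroxidases that include some of the most abundant proteins of the cell. Their sum was 1849.8 ± 45.96 CPM in control, 1558 ± 86.3 in HD-het libraries and 2123 ± 190.0 in HD-homo. Of the 7 genes, 1 was higher and 5 lower in HD-het than in control (85.7% called against 60.1% of all tested genes). In HD-homo 1 was higher and 3 lower (57.1% against 45.7%). Prdx1 (cytosolic, chr4:116685599-116700000) had 867, 934 and 913 CPM for control, 653, 742 and 708 for HD-het and 1303, 1136 and 1188 for HD-homo. The lines did not overlap, with HD-het lowest and HD-homo highest. Prdx1 fell in HD-het by 0.37 on the log2 scale (SE 0.08, adjusted p = 0.00259) and was higher in HD-homo by 0.42 (SE 0.08, adjusted p = 0.00169), which became 0.17 with the offsets for coding length and GC (adjusted p = 0.162). Prdx2 (cytosolic) had 331, 329 and 331 CPM in control cells, 217, 219 and 206 in HD-het cells and 399.7, 337 and 438 in HD-homo. Its HD-het libraries lay below and its HD-homo libraries above control, and the differences were -0.63 (SE 0.09, adjusted p = 1.74e-04) and 0.25 (SE 0.09, adjusted p = 0.0513). Without HD-homo replicate 2, the lowest of its line, the latter was 0.34 (adjusted p = 0.00426).

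Prdx3, the mitochondrial form, fell in HD-het from 106 ± 9.08 to 57.8 ± 6.63 CPM (log2 -0.87, SE 0.13, adjusted p = 2.03e-04) and was 97.8 ± 17.3 in HD-homo (adjusted p = 0.531 against control). Prdx4, which acts in the endoplasmic reticulum, went the other way, with 176, 175 and 129 CPM in control, 258, 296 and 283 in HD-het libraries and 205, 150.1 and 190.0 in HD-homo. Only the HD-het libraries of Prdx4 stood clear of the rest, at log2 0.80 over control (SE 0.14, adjusted p = 4.61e-04). Prdx5, found in mitochondria, peroxisomes and cytosol, had 160.2 ± 17.2, 164 ± 11.4 and 128 ± 19.2 CPM. It was called lower in HD-homo than in control (log2 -0.33, adjusted p = 0.0427) although the libraries overlapped, and the call was lost without control replicate 1 or 2 or HD-homo replicate 1 or 2 (adjusted p 0.0701 to 0.141), the last with a value of -0.22. Its call against HD-het (-0.36, adjusted p = 0.0184) was lost without HD-het replicate 2 or HD-homo replicate 2 (adjusted p 0.0712 and 0.0647).

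Prdx6, which also has phospholipase activity, had 128, 129.6 and 129 CPM for control, 93.5, 103 and 90.5 for HD-het and 94.4, 70.5 and 72.8 for HD-homo. Control lay above both mutant lines, which overlapped. Prdx6 fell by 0.43 on the log2 scale in HD-het (SE 0.11, adjusted p = 0.00533) and by 0.70 in HD-homo (SE 0.11, adjusted p = 3.25e-04). The difference between the mutant lines (-0.27, adjusted p = 0.0467) was lost without any 1 library except HD-het replicate 3 and HD-homo replicate 1 (adjusted p 0.0618 to 0.158), and without HD-homo replicate 1 it was -0.41 (adjusted p = 0.00126). Prdx6b, a copy with 92.9% identity in coding sequence that shares 10.9% of 28-base windows with Prdx6, had 60.4 ± 4.92, 46.1 ± 3.57 and 36.5 ± 3.11 CPM. With counts 0.420 to 0.499 of those of Prdx6 in every library, its own footprints cannot be told apart from those of Prdx6 where the letters are shared, and the 2 rows summed gave -0.42 in HD-het (adjusted p = 0.004004), -0.71 in HD-homo (adjusted p = 1.63e-04) and -0.29 between the mutant lines (adjusted p = 0.0238).

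The thioredoxins and their reductases summed to 1655 ± 39.5 CPM in control cells, 905 ± 28.6 in HD-het cells and 1618 ± 141 in HD-homo libraries. Txn1 had the most footprints of the 5 genes and weighs most in their sum. Of the 5 genes, 4 were lower and none higher in HD-het than in control (80.0% called against 60.1% of all tested genes). Their median log2 fold change was -0.83. In HD-homo 1 was lower and none higher (20.0% against 45.7%). Txn1, the cytosolic thioredoxin (chr4:57943373-57956411), had 1073, 1054 and 1141 CPM in control, 448, 495 and 449 in HD-het libraries and 896, 952 and 1109 in HD-homo. The HD-het libraries lay far below all others, with no overlap. Txn1 fell in HD-het by 1.23 on the log2 scale (SE 0.09, adjusted p = 1.40e-06), and HD-homo against control gave -0.14 (SE 0.09, adjusted p = 0.226), or -0.30 with the offsets (adjusted p = 0.0132). Txn2, the mitochondrial thioredoxin, had 80.1, 76.3 and 85.9 CPM for control, 32.5, 35.6 and 38.3 for HD-het and 75.1, 72.5 and 70.7 for HD-homo. HD-het was again lowest with no overlap, at log2 -1.19 (SE 0.09, adjusted p = 1.05e-06), against -0.15 in HD-homo (SE 0.08, adjusted p = 0.171), or -0.22 with the offsets (adjusted p = 0.0404).

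The reductases restore thioredoxin with NADPH. Txnrd1, the cytosolic form, had 454, 437 and 422 CPM in control cells, 386, 380.1 and 371 in HD-het cells and 565, 427 and 542 in HD-homo. HD-het lay below control without passing the test (log2 -0.21, SE 0.10, adjusted p = 0.0967), which it did with the offsets (-0.44, adjusted p = 0.00226) and without the HD-homo libraries in the fit (-0.21, adjusted p = 0.0202). HD-homo overlapped with control through replicate 2, without which its difference of 0.23 (adjusted p = 0.0906) was 0.34 (adjusted p = 0.003898). Txnrd2, the mitochondrial form (chr16:18426417-18479073), had 10.2, 9.896 and 9.97 CPM in control, 4.897, 6.02 and 6.01 in HD-het libraries and 4.84, 3.79 and 2.97 in HD-homo. The lines did not overlap, with control highest. Txnrd2 fell by 0.83 on the log2 scale in HD-het (SE 0.16, adjusted p = 9.92e-04) and by 1.36 in HD-homo (SE 0.17, adjusted p = 4.90e-05), the largest fall among the 56 genes in HD-homo cells. The difference between the mutant lines (-0.53, adjusted p = 0.0167) was lost without HD-het replicate 2 or HD-homo replicate 3 (adjusted p 0.0611 and 0.0545). Txnrd3 fell in HD-het from 37.2 ± 3.11 to 21.5 ± 0.789 CPM (log2 -0.79, SE 0.13, adjusted p = 2.48e-04), with 44.1 ± 7.76 in HD-homo (adjusted p = 0.125 against control, and 0.0106 without HD-homo replicate 2).

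Against control, 60.1% of all tested genes were called in HD-het and 45.7% in HD-homo. Over the 6 testable genes with a selenocysteine codon, 1 was higher and 2 lower in HD-het (50.0% called, median log2 -0.13). In HD-homo none was higher and 1 lower (16.7%, median 0.07). Over the 10 testable genes with a promoter match to the antioxidant response element core, 2 were higher and 3 lower in HD-het (50.0%). In HD-homo 3 were higher (Prdx1, Sod1 and Srxn1) and none lower (30.0%). With the offsets, Prdx1 and Sod1 were not called in HD-homo (adjusted p 0.162 and 0.197). Over the 37 testable genes with a promoter and no match, 11 were higher and 15 lower in HD-het (70.3%), and 9 and 5 in HD-homo (37.8%). The median log2 fold change in HD-homo was 0.14 with a match and 0.14 without.

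Superoxide dismutases and catalase followed. Cat (chr2:103453904-103485153), the peroxisomal catalase, had 44.7, 44.5 and 47.8 CPM for control, 96.99, 101 and 83.4 for HD-het and 99.5, 116 and 93.99 for HD-homo. Both mutant lines stood above control and overlapped with each other. Cat was 2.05-fold higher in HD-het (log2 1.04, SE 0.10, adjusted p = 8.17e-06) and 2.26-fold higher in HD-homo (log2 1.18, SE 0.10, adjusted p = 3.21e-06). The mutant lines differed by 0.14 (adjusted p = 0.242), or by 0.27 with the offsets (adjusted p = 0.0436), where the median of all tested genes was 0.13. Sod2, the mitochondrial manganese enzyme, had 96.7, 96.5 and 96.7 CPM in control cells, 58.8, 60.8 and 61.2 in HD-het cells and 83.1, 79.9 and 87.2 in HD-homo. The lines did not overlap, and Sod2 fell in HD-het by 0.68 on the log2 scale (SE 0.07, adjusted p = 1.13e-05). Its lower value in HD-homo (-0.21, SE 0.07, adjusted p = 0.0268) was no longer called without control replicate 1, 2 or 3 or HD-homo replicate 2 (adjusted p 0.0644 to 0.0779).

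Sod1 and Sod3 were called in opposite directions in the mutant lines. Sod1, the cytosolic copper and zinc enzyme, had 616, 559.9 and 612 CPM in control, 511, 477 and 487 in HD-het libraries and 666, 794 and 671 in HD-homo. The lines did not overlap, with HD-het lowest and HD-homo highest. The differences from control were small, at -0.28 in HD-het (SE 0.09, adjusted p = 0.0175) and 0.25 in HD-homo (SE 0.09, adjusted p = 0.0353). The first was lost without control replicate 1 or 3 (adjusted p 0.0536 and 0.0512) and the second without any 1 library except HD-homo replicate 1 or 3 (adjusted p 0.0549 to 0.137). With the offsets they were -0.17 (adjusted p = 0.105) and 0.14 (adjusted p = 0.197). Sod3, the secreted enzyme, had 46.6, 47.8 and 36.7 CPM for control, 59.1, 53.9 and 81.8 for HD-het and 24.9, 25.2 and 25.02 for HD-homo. HD-het lay above and HD-homo below control. Sod3 was higher in HD-het by 0.57 (SE 0.15, adjusted p = 0.00666), a value that was 0.35 without HD-het replicate 3 (adjusted p = 0.0283), and fell in HD-homo by 0.80 on the log2 scale (SE 0.15, adjusted p = 0.00126).

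The other rows starting with Txn are thioredoxin-fold or thioredoxin-binding proteins that the choice by symbol took in. Txnip (chr3:96557957-96561857), which binds and inhibits thioredoxin and restrains glucose uptake, had 24.98, 27.9 and 29.1 CPM in control cells, 100.2, 115 and 123 in HD-het cells and 34.4, 27.1 and 67.8 in HD-homo. The HD-het libraries stood above all others, while HD-homo replicate 3 lay between its own line and HD-het. Txnip was 4.12-fold higher in HD-het (log2 2.04, SE 0.27, adjusted p = 6.34e-05). In HD-homo the difference of 0.65 (SE 0.26, adjusted p = 0.0629) passed the test without HD-homo replicate 1 (0.79, adjusted p = 0.0449) or replicate 2 (0.90, adjusted p = 0.00706). It also passed with total counts (adjusted p = 0.0385), no filter (0.0451) and DESeq2 (0.0323). Across all settings the value ranged from 0.17 to 0.90, with an adjusted p of up to 0.322. Txndc16 (chr14:45134448-45219551), a protein of the endoplasmic reticulum, had 4.16, 4.02 and 2.56 CPM in control, 52.99, 52.6 and 63.7 in HD-het libraries and 3.92, 4.21 and 2.88 in HD-homo. Only HD-het was high, at 15.6-fold over control (log2 3.97, SE 0.19, adjusted p = 4.30e-08), and HD-homo gave 0.04 (SE 0.20, adjusted p = 0.898). Of the 11 tested rows of this kind, 6 were higher and 2 lower in HD-het than in control (72.7% called against 60.1% of all tested genes). In HD-homo 2 were higher and 1 lower (27.3% against 45.7%). Examples chosen after their values were seen, higher in HD-het, were the endoplasmic reticulum proteins Txndc5 (268 ± 28.8 and 420.3 ± 53.3 CPM) and Txndc12 (93.5 ± 7.78 and 124 ± 15.1 CPM), and a lower one was the cytosolic Txndc17 (126 ± 7.76 and 84.6 ± 3.47 CPM).

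**Figure D4:**
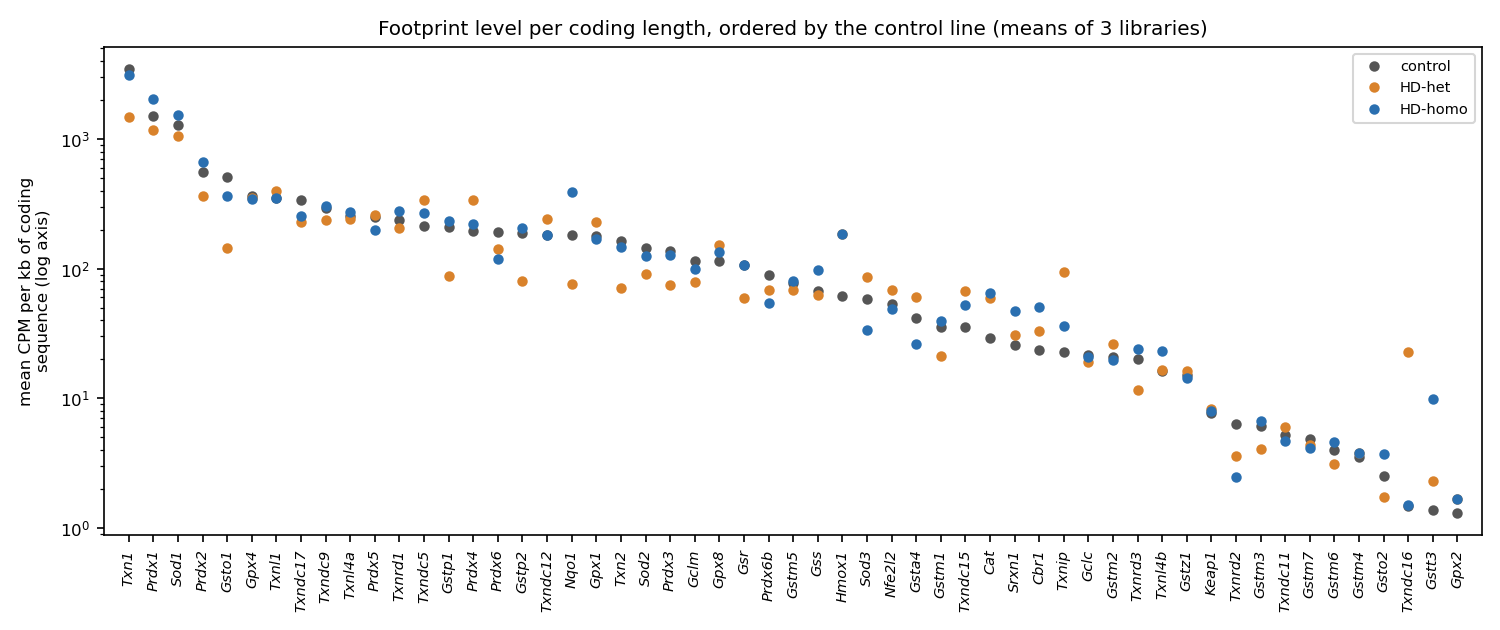
Mean footprints per kb of coding sequence (y axis, log scale, CPM per kb, n = 3 libraries) of the tested genes with a coding length other than Gpx7, ordered by the control line (x axis), in control (grey), HD-het (orange) and HD-homo (blue) cells. Txn1, Prdx1 and Sod1 were the 3 highest in every line, and Gstt3 and Gpx2 were the lowest in control.

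To set levels of different genes side by side, CPM were divided by the length of the longest complete coding sequence. On this scale Txn1 had 3459, 1472 and 3129 CPM per kb (control, then HD-het, then HD-homo), Prdx1 had 1516, 1174 and 2025, and Sod1 had 1289.8, 1064 and 1537. Keap1, with 7.75, 8.18 and 7.93 CPM per kb, lay below Nfe2l2 with 53.1, 68.1 and 49.1. Among the reductases, Txnrd1 had 238, 206 and 278 CPM per kb, Txnrd3 had 20.2, 11.6 and 23.9 and Txnrd2 had 6.35, 3.57 and 2.45. The order of the 3 reductases was thus the same in each line.

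Genes outside the choice by symbol that belong to the same pathways were taken from lists of 83 genes, of which 79 could be tested (those named were chosen after their values were seen). Against control, 26 rose and 23 fell in HD-het cells (62.0% called against 60.1% of all tested genes, median log2 0.10). In HD-homo cells, 27 were higher and 20 lower (59.5% against 45.7%, median 0.04). Between HD-homo and HD-het, 30 were higher and 26 lower in HD-homo (70.9% against 67.5%, median 0.07). Over all tested genes, 31.0% were higher and 29.1% lower in HD-het, and 23.3% and 22.3% in HD-homo. The counts of each list below are to be read against these shares, and no test compared them. Of the list for cystine import and glutathione turnover, 54.5% of the tested genes were called in HD-het, against 60.1% of all tested genes. Slc7a11, the cystine carrier that supplies cysteine for glutathione, had 6.45, 6.71 and 4.78 CPM for control, 22.97, 25.5 and 27.6 for HD-het and 8.79, 8.18 and 7.67 for HD-homo. It rose in both mutant lines, by 2.08 in HD-het (SE 0.14, adjusted p = 5.74e-07) and 0.45 in HD-homo (SE 0.14, adjusted p = 0.0209). Chac1, which breaks glutathione down, had 5.94 ± 0.315 CPM in control cells, 20.2 ± 1.800 in HD-het cells and 6.25 ± 2.04 in HD-homo, with a log2 fold change of 1.76 in HD-het (SE 0.19, adjusted p = 1.70e-05). In all, 5 of the 11 tested genes of this list were higher and 1 lower in HD-het, and 4 were higher and 2 lower in HD-homo.

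Of 12 relatives, partners and turnover factors of NRF2, 2 were higher and 4 lower in HD-het, and 4 were higher and 2 lower in HD-homo. Nfe2l1, a relative of NRF2 that drives proteasome genes, had 75.6 ± 14.9, 153 ± 12.9 and 60.9 ± 10.5 CPM, higher in HD-het (log2 1.02, SE 0.16, adjusted p = 2.03e-04). Bach1, a repressor at antioxidant response elements, had 14.5 ± 1.66, 11.4 ± 1.12 and 26.5 ± 3.01 CPM and was lower in HD-het (-0.35, adjusted p = 0.0333) and higher in HD-homo (0.87, adjusted p = 1.56e-04). Rbx1, the RING subunit of the ligase with which KEAP1 acts, fell in HD-het from 257 ± 23.1 to 107 ± 5.88 CPM and was 264 ± 16.7 in HD-homo. Sqstm1, which binds KEAP1, was higher in HD-het (593 ± 78.2 against 415 ± 26.6 CPM) and lower in HD-homo (314 ± 18.6 CPM).

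Among 19 further genes known as NRF2 targets, 6 were higher and 7 lower in HD-het, and 7 were higher and 6 lower in HD-homo. Cbr3 and Blvra, a carbonyl reductase and biliverdin reductase, increased from control through HD-het to HD-homo, at 18.3 ± 1.68, 27.02 ± 0.7801 and 44.7 ± 2.15 CPM for Cbr3 and 48.5 ± 2.26, 58.5 ± 3.45 and 100.2 ± 5.97 for Blvra. The pentose phosphate pathway supplies the NADPH that the reductases use, and its genes G6pdx, Pgd and Tkt were lower in HD-het than in control (log2 -0.45, -0.49 and -0.32), whereas Taldo1 of the same pathway was higher (0.59, adjusted p = 3.26e-05). Aldh3a1, an aldehyde dehydrogenase, fell from 7.05 ± 0.444 CPM in control to 1.75 ± 0.534 in HD-het and 0.07504 ± 0.06798 in HD-homo, where its counts were close to the limit of detection.

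Glutathione enzymes outside the choice by symbol had 4 higher and 6 lower of 14 tested in HD-het, and 3 higher and 5 lower in HD-homo. The microsomal transferase Mgst1 was higher in both mutant lines (2.74 ± 0.167, 8.99 ± 1.84 and 8.43 ± 0.834 CPM), and Mgst2 in HD-homo (1.22 ± 0.0839, 1.12 ± 0.292 and 13.1 ± 2.27 CPM, log2 3.41 over control, adjusted p = 1.05e-07). Gstk1, the mitochondrial and peroxisomal kappa class transferase, had 1.12 ± 0.484 CPM in control, 0.3398 ± 0.1305 in HD-het and a count of 0 in all HD-homo libraries. This is at least 10.2-fold lower than control, where its counts were 26, 30 and 44. Its call as lower in HD-homo, included in the counts of this list, is no separate support. Of methionine sulfoxide repair and other redox enzymes, 5 of 10 were higher and 3 lower in HD-het, and 4 were higher and 3 lower in HD-homo. Aifm2, a suppressor of ferroptosis that works beside Gpx4, fell in HD-het from 17.5 ± 1.46 to 9.096 ± 0.645 CPM (log2 -0.94, adjusted p = 1.32e-04) and was 21.2 ± 3.65 in HD-homo. Of 13 genes of selenoprotein synthesis and other selenoproteins, 4 were higher and 2 lower in HD-het, and 5 were higher and 2 lower in HD-homo. Eefsec, the elongation factor for selenocysteine, had 16.4 ± 1.09, 13.5 ± 1.29 and 23.8 ± 0.174 CPM, lower in HD-het (-0.29, adjusted p = 0.0256) and higher in HD-homo (0.53, adjusted p = 9.69e-04).

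The 13 genes of the 69 that were not tested were Gpx2-ps1, Gpx3, Gpx5, Gpx6, Gsta1, Gsta2, Gsta3, Gstp3, Gstt1, Gstt2, Gstt4, Txndc2 and Txndc8, of which only Gstt1 and Gstt2 exceeded 4 counts in any library. Besides Gclc, Gpx4 and Keap1, the tested genes Gpx2, Gstm4, Gstm7, Gstz1 and Txnl4a passed no pairwise test. The use of strand in counting was not given in the sources used here, and the tested genes Gclm, Gpx7, Gpx8, Gsr, Gss, Gstm4, Gstm5, Gstz1, Prdx1, Prdx5, Txndc5, Txndc11, Txndc12, Txndc16, Txnip, Txnl4a, Txnrd1 and Txnrd2 overlap another annotated gene, so that footprints of these neighbours could be counted with them.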

How the data were processed

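Footprint libraries of 9 samples, 3 per line, were used. The table that the authors deposited holds raw footprint counts by gene symbol, neither normalized nor pooled. The submitters' processing notes name cutadapt, Bowtie 1.0.1 and build mm10. The counter, annotation and use of strand were not given in the sources used here. All columns were mapped to samples by their labels. Rows with a symbol turned into a date (26, with 0.252% of counts) were kept and never named, and 283 rows under an older symbol (0.222% of counts) were left out in one alternative. None of either kind was among the 69 genes.

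Counts were tested with edgeR 4.0.16 (glmQLFit and glmQLFTest, limma 3.58.1, R 4.3.3), with TMM factors, filterByExpr by group, group means as the only terms, all 9 libraries in one fit and Benjamini-Hochberg adjustment over 12678 genes, at a threshold of 0.05. CPM use TMM library sizes. The steps were tested on simulated data. Where a group had a count of 0 in every library, a bound against 3 counts per library is given instead of a fitted value. Coding lengths and selenocysteine codons came from GENCODE M21, and coordinates and promoters from RefSeq (GRCm38.p6). Alternatives were DESeq2 1.42.0, RLE factors, total counts, a minimum of 10 counts throughout or no filter, fits of 6 libraries at a time, a replicate block, older symbols left out and each library left out. Offsets for coding length and GC (loess, span 0.5) and summed Gstp1 with Gstp2 and Prdx6 with Prdx6b were chosen after seeing the data.

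Genes were named by a fixed list of 29, plus 5 others called with a log2 change of at least 1 in size and at least 10 CPM in the highest line. Other genes are given by counts, or named as chosen after their values were seen. The genes and lists were chosen with earlier results of these data known. The p-values measure the spread between culture rounds of 1 line each.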

Additional observations from a re-analysis of the deposited data

Results flagged for a closer look

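For 5 genes the mutant lines were called in opposite directions against control and were also called against each other. All of these calls were required for a gene to be listed here. The p-values below were thus part of the choice and give no further support. The share of all tested genes that meet the same joint requirement was not counted. Whether 5 of the 56 tested genes is many or few therefore cannot be told. Taken singly, 60.1% and 45.7% of all tested genes were called in HD-het and HD-homo over control, and 67.5% in HD-homo over HD-het. Nqo1 was lower in HD-het and higher in HD-homo, with a log2 fold change of HD-homo over HD-het of 2.35 (SE 0.15, adjusted p = 1.67e-07). Prdx1 and Sod1 had the same order, with 0.79 (SE 0.08, adjusted p = 8.18e-06) and 0.53 (SE 0.09, adjusted p = 2.49e-04). Gsta4 and Sod3 were higher in HD-het and lower in HD-homo, with -1.21 (SE 0.14, adjusted p = 1.72e-05) and -1.37 (SE 0.15, adjusted p = 1.25e-05). The libraries of the mutant lines did not overlap for any of these 5 genes, against 69.5% of all tested genes, and the choice itself favours such genes. With the offsets for coding length and GC, Sod1 was called against control in neither mutant line, and Prdx1 was not called in HD-homo.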

How the results depend on the processing

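Over the alternatives, 36 to 41 of the 56 genes were called between HD-het and control, 19 to 25 between HD-homo and control and 39 to 43 between HD-homo and HD-het, and with 1 library left out 33 to 39, 18 to 25 and 37 to 43. Of 102 comparisons of named genes, no called difference reversed its direction in the 20 settings and 78 stayed on the same side of the threshold in all of them; the other 24 changed side in at least 1 setting. With total counts alone, Nfe2l2 and Gpx1 in HD-het were not called (adjusted p 0.0577 and 0.0686). The offsets for coding length and GC moved the median log2 fold change of all tested genes to -0.13 for HD-het over control and 0.13 for HD-homo over HD-het, so their values are to be read against these shifts. The cause of the changes was not tested.

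The replicate numbers did not pair the libraries: of 9 same-numbered pairs, 1 deviated together with a correlation over 0.1 (range -0.356 to 0.175), and 1 library correlated best with its own number. With the replicate number as a block, 37 and 19 genes were called in the HD-het and HD-homo lines over control, 40 between the mutant lines, and 42 for any difference. Prdx5 and Sod1 in HD-homo against control (adjusted p 0.0715 and 0.0638) and Prdx6 between the mutant lines (0.05400) then missed the threshold. With the block and the offsets together the counts were 39, 21, 41 and 44. Calls lost in that setting were Srxn1 and Txnrd2 between the mutant lines (adjusted p 0.0545 and 0.0647). Against control, Nfe2l2 and Sod1 in HD-het (0.422 and 0.138) and Prdx1 and Sod1 in HD-homo (0.226 and 0.255) were lost. In the other direction, 8 comparisons of named genes passed the threshold only there and not in the main fit. Depth limits the genes with few counts, such as Gstt2 with at most 9 in any library and Gstt1 with at most 18.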
